A study of Rattus norvegicus with 24 samples.

Results

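The nose and the blood of unexposed rats were compared here: 6 arrays of nasal tissue against 6 arrays of white blood cells, 12 of the 24 arrays of a study of inhaled formaldehyde. The members were chosen by their labels as controls, and no measured value entered the choice. All animals were male Fischer rats, about 8 weeks old at the start, and the controls breathed room air while held in nose-only tubes, 6 hours daily, for either 7 or 28 days. Each tissue had 3 control arrays at 7 days and 3 at 28 days. The other 12 arrays came from rats that breathed 2 ppm formaldehyde on the same schedule, and served here only as a second set of samples for the same tissue comparison.

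The nasal samples were taken from the maxilloturbinate, a scroll of bone in the front of the nose covered by mucosa, and are labelled as nasal epithelial cells. They are pieces of tissue and can hold stroma, vessels, bone, glands and resident leukocytes besides epithelium. The white blood cells were separated from heparinised heart blood in cell preparation tubes, in which a gel keeps mononuclear cells apart from granulocytes and red cells during spinning. In either kind of sample, fewer cells of a type and less RNA per cell cannot be told apart. The labels do not say that replicates of a group came from separate animals, and the p-values therefore speak for the spread among these samples alone.

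The nasal lining is a barrier of ciliated, secretory and basal cells that moves mucus over its surface and carries many enzymes that metabolise inhaled chemicals. Further back it gives way to olfactory epithelium, whose neurons detect odorants and whose sustentacular cells and Bowman's glands add odorant-binding proteins and more enzymes. Blood cells do other work: T cells, B cells and NK cells recognise antigens or altered cells, monocytes and neutrophils take up microbes, platelets seal vessels and red cells carry oxygen. Chemokines, the attractant proteins, link both compartments, since tissue cells release them and receptors on leukocytes read them.

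A level is given throughout as log2 of the deposited intensity above the median of its own array, so that 0 is the array's median, and a difference is nose minus blood on this scale. The deposited scales differed: array medians ran from 305.5 to 311.7 in nose at 7 days, from 163.3 to 171.5 in nose at 28 days, from 174.8 to 176.4 in blood at 7 days and from 113.4 to 119.4 in blood at 28 days. Replicates of a group correlated across probe sets with r of 0.914 to 0.994. Some arrays stood apart. Replicate 1 of nose was low in olfactory genes on both days, and nose 28 day replicate 3 was low in several epithelial and stromal genes. Replicate 2 of blood was high in neutrophil genes on both days, and blood 7 day replicate 2 was also high in some secretory genes of the nose. The results that moved most with these arrays are given with and without them.

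Most genes differed between the tissues. Of 12032 genes tested (limma, Benjamini-Hochberg over 21910 probe sets), 9799 were called (81.4%) at an adjusted p under 0.05: 3497 were higher in nose (29.1%) and 6302 higher in blood (52.4%). The median difference over all genes was -0.27. Over probe sets 80.8% were called, 23.7% higher in nose and 57.0% higher in blood, with 5.65% and 5.16% at least 4-fold and 23.5% and 20.2% in one direction under all 4 scalings described next. The direction of small differences depended on the scaling. Over probe sets, 29.4% of calls were higher in nose here, against 72.3% for the values as deposited, 39.6% after quantile normalization and 46.6% with arrays centred on their 75th percentile. Under all 4 scalings 3460 genes were called higher in nose (28.8%) and 2416 higher in blood (20.1%). Differences of at least 4-fold numbered 827 genes in nose (6.87%) and 740 in blood (6.15%). Against this background every count of list members below should be read. In 6928 genes (57.6%) the 6 nose values and the 6 blood values did not overlap.

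**Figure D1:**
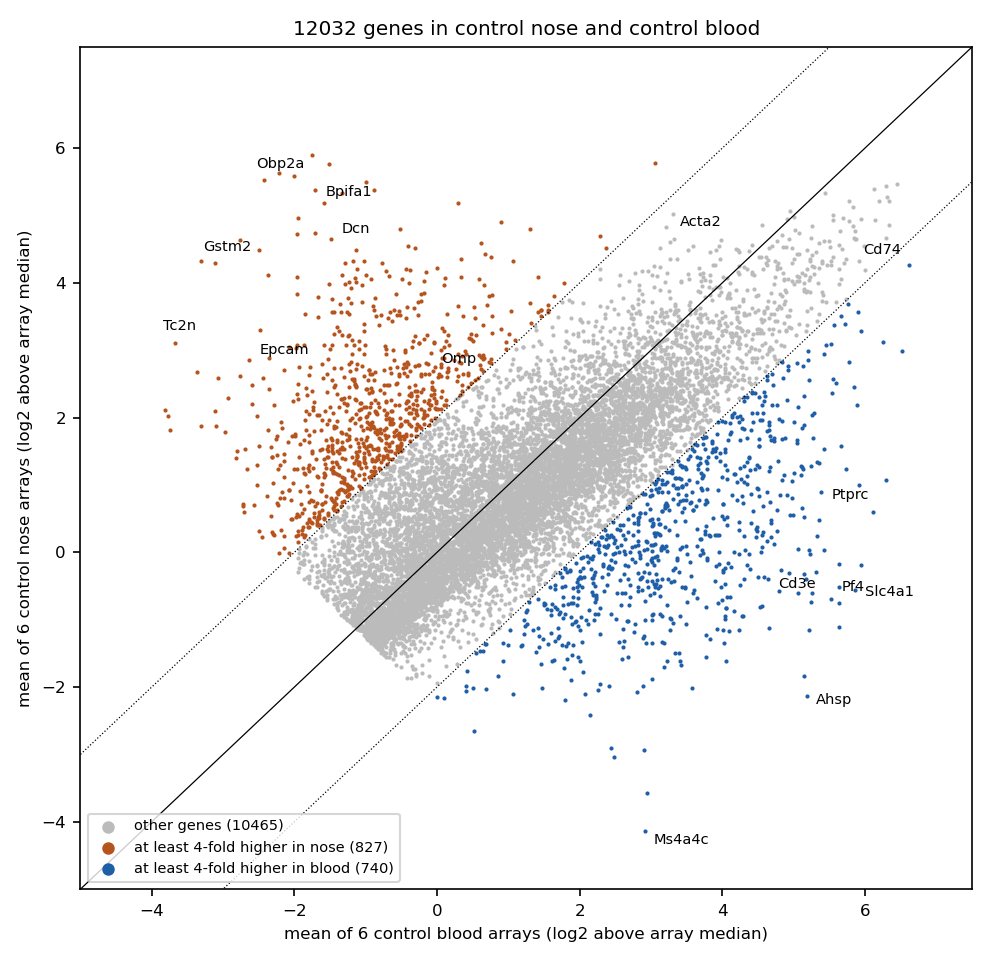
Mean level of each of 12032 genes in control blood (x axis) and control nose (y axis), both in log2 above the array median, with the 827 genes at least 4-fold higher in nose in orange and the 740 at least 4-fold higher in blood in blue. The solid line marks equal levels and the dotted lines a difference of 2 on the log2 scale; the empty lower left corner is the filter on dim probe sets.

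The genes with the widest gap in favour of the nose were secreted odorant and lipid carriers. Obp2a, an odorant-binding lipocalin, had levels in nose of 5.29 to 5.76 (median 5.52) and in blood of -2.99 to -1.72 (median -2.52). Every nose array was thus far above every blood array, with a difference of 7.95 ± 0.17 (SE), or 247-fold, adjusted p = 1.8e-13. Beside it stood the carriers Obp1f, Paep, Mup5 and Obp2b, the airway host-defence protein Bpifa1 (difference 7.10 ± 0.14) and Dmbt1, a mucosal scavenger protein that binds microbes (6.91 ± 0.13). Enzymes filled other places among the 12 largest: the glutathione transferase Gstm2 (7.40 ± 0.12), the sulfotransferase Sult1c3 (7.40 ± 0.08) and Gpx6 (6.97 ± 0.35), a glutathione peroxidase of olfactory tissue. Csap1 (7.59) and Tc2n (6.78 ± 0.11) completed them. In blood all 12 lay below the 25th percentile of that tissue's probe sets, a level of -1.21, so the size of these differences is uncertain.

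One blood array was high in some of these genes. Obp1f had levels of 5.40 to 5.94 in nose (median 5.59). In blood 5 arrays lay between -3.56 and -2.23, while blood 7 day replicate 2 reached 2.02. The difference of 7.85 ± 0.73 (adjusted p = 3.53e-07), or 231-fold, became 8.69, or 413-fold, without that array. Paep behaved alike, at 1.34 on that array and -2.74 to -2.04 on the other 5, and its difference went from 7.66 to 8.28 without it. Csap1 was at 0.19 there against -2.60 to -2.28, and Bpifa1 at -1.05 against -1.92 to -1.73. The part that nasal RNA may have in this array was not tested.

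As a group the secretory and gland products had 26 members tested, of which 19 were higher in nose and 5 in blood, with 17 at least 4-fold higher in nose and a median difference of 4.57. Pigr, which carries IgA across epithelium, differed by 4.95, the secretoglobins Scgb1c1 and Scgb3a1 by 6.26 and 2.73, Agr2, which folds mucins, by 5.23, and Muc1, a membrane mucin, by 2.19. Scgb1a1, the club cell secretoglobin, was dim in both tissues, at -1.80 to -1.20 in nose and -1.74 to -0.97 in blood, and was not tested. The members higher in blood were Bpifa2 (-0.90), Slpi (-0.74), Bpifb2 (-0.53), Lpo (-0.35) and Lcn1 (-0.30). None of these 5 was called in blood under all 4 scalings. Slpi, an antiprotease also made by neutrophils, was highest on blood 28 day replicate 2, at 4.31 against 2.06 to 2.74 on the other 5 blood arrays. Its difference was -0.48 (adjusted p = 0.0792) without that array. The call was lost when any of 7 of the 12 arrays was left out, and over 23 alternatives the adjusted p ran from 1.82e-07 on the exposed arrays to 0.838.

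The genes of motile cilia, the beating axonemes that move mucus, were higher in nose in 28 of 31 members tested and higher in blood in 1, with 16 at least 4-fold higher in nose and a median difference of 2.06. All 28 were called higher in nose under each of the 4 scalings. The dynein arm genes Dnah11, Dnai1 and Dnah7 differed by 3.65, 2.87 and 2.5, the central pair gene Hydin by 2.85, the tektin Tekt1 by 3.23 and Ccdc39, a ruler of axoneme repeats, by 2.5. Foxj1, the transcription factor that sets up motile ciliogenesis, had levels of 1.32 to 1.60 in nose and 0.34 to 0.54 in blood. These did not overlap, and the difference lay below the list's median, at 1.09 ± 0.07 (2.13-fold, adjusted p = 1.37e-08). The exception was Rfx3, a factor of the RFX family that acts with Foxj1. It was higher in blood by a difference of -0.33 ± 0.11 (adjusted p = 0.0148), with levels of 1.14 to 1.91 in nose against 1.76 to 1.98 in blood, and the sign turned to 0.34 for the values as deposited and to 0.04 after quantile normalization. Dnah5 was not analysed here.

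RFX factors bind X-box motifs, and the promoters of the cilia genes are shown because these genes were higher together. The X-box core GTTGCCA was searched on both strands in the 250 bases before and 50 after each start site in RefSeq's promoters of build GRCr8. It was found in 9 of 26 cilia promoters that matched by gene identifier (34.6%), against 1222 of 27457 promoters in all (4.45%), 6.27% of those of genes at least 4-fold higher in nose and 4.15% of those at least 4-fold higher in blood. All 9 genes were called higher in nose. A match is a description of the sequence and not evidence that a factor binds there. Capsl, a calcium-binding protein of ciliated cells with the largest difference on the list (5.93 ± 0.10, levels of 1.90 to 2.48 in nose and -3.97 to -3.51 in blood), is shown over its whole window, chr2:60121912-60122211 on the plus strand. For the other 8 a stretch around the match is given: chr6:145298487-145298523 on the minus strand for Dnah11, chr15:13956133-13956169 on the minus strand for Sntn, chr10:57479139-57479175 on the minus strand for Tekt1, chr19:55146444-55146480 on the plus strand for Hydin, chr6:31779255-31779291 on the minus strand for Drc1, chr2:46363824-46363846 on the plus strand for Ccno, chr4:159277885-159277921 on the minus strand for Lrrc23 and chr8:20723584-20723620 on the minus strand for Deup1. Lrrc23 held 2 matches, of which the one farther from the start is shown. Sequences run 5′ to 3′ on the gene's strand, and the capitals mark the core or its reverse complement TGGCAAC.
Capsl: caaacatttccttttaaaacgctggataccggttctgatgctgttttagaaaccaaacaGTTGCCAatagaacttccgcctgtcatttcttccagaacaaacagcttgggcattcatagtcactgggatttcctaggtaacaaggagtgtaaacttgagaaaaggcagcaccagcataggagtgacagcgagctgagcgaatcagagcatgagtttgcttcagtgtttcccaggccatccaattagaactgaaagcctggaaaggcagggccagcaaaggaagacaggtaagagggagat
Dnah11: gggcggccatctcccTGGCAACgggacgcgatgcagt
Sntn: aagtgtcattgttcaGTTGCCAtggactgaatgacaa
Tekt1: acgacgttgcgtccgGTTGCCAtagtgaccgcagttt
Hydin: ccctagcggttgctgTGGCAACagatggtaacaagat
Drc1: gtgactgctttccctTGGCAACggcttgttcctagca
Ccno: gGTTGCCAgggtgacgacggacg
Lrrc23: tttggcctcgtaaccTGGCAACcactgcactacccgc
Deup1: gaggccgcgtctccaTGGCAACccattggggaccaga
Counted from the start, 7 of the 9 promoters held a core that began between -64, as in Sntn, and 15, as in Dnah11. Among these was Lrrc23, whose match shown here began at -142 and whose other match lay nearer the start. The core began at -191 in Capsl and at -249 in Ccno. In the other lists searched it was found in 4.35% of leukocyte promoters, in 4.17% each of epithelial, T cell and monocyte promoters, and in 0 of 20 fibroblast promoters.

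Epithelial adhesion and identity genes were higher in nose in 36 of 40 members and higher in blood in 1, with a median difference of 2.30 and 25 at least 4-fold higher in nose. Epcam, a surface marker of epithelium, had levels in nose of 1.88 to 3.14 (median 3.08) and in blood of -3.18 to -2.16 (median -2.57). The tissues were fully apart, with a difference of 5.49 ± 0.17 (45.1-fold, adjusted p = 5.21e-12), and the lowest nose value was that of 28 day replicate 3. The tight junction claudins Cldn8, Cldn10 and Cldn7 differed by 5.78, 4.30 and 4.26, the simple keratins Krt18 and Krt8 by 4.32 and 4.04, and the splicing factor Esrp1, which keeps epithelial isoforms, by 4.45. E-cadherin, Cdh1, differed by 3.46 ± 0.16. Cldn18 was the member called higher in blood, by -0.61, and turned to 0.06 for the values as deposited.

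Basal cell and squamous genes were more mixed, with 15 of 21 higher in nose, 3 higher in blood and a median difference of 1.61. Tp63, the master factor of basal cells, had levels of 0.78 to 1.12 in nose and -1.57 to -1.13 in blood, a difference of 2.29 ± 0.09 (adjusted p = 5.53e-11). The basal keratins Krt15 and Krt14 differed by 4.22 and 3.41 and the laminin receptor chain Itgb4 by 2.82. Its partner Itga6 went the other way by -2.53 ± 0.19, at 1.24 to 2.69 in nose and 4.62 to 4.78 in blood, where platelets and some leukocytes carry it. Involucrin, Ivl, and the nerve growth factor receptor Ngfr were also called higher in blood, by -0.86 and -0.79, though not under every scaling. The list's mean level was highest on nose 28 day replicate 1, at 1.55 against 0.47 to 0.94 on the other 5 nose arrays. The median difference of 1.61 was 1.3 without that array and 1.21 without replicate 1 of both days, and the members at least 4-fold apart in either direction then numbered 7 in place of 9.

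Olfactory neuron genes were detected in the nasal samples and varied more between arrays than other groups. Of 24 members 21 were higher in nose and 1 in blood, with 10 at least 4-fold higher and a median difference of 1.41. Without replicate 1 of nose on both days these were 12 and 1.7, and without nose 28 day replicate 3 they were 7 and 1.31. Omp, the marker of mature olfactory neurons, had levels of 1.36, 3.39 and 3.05 in nose at 7 days and 0.80, 4.08 and 3.47 at 28 days, against -0.14 to 0.07 in blood. Replicate 1 was the lowest nose array on each day, and still above all blood arrays. The difference was 2.75 ± 0.47 (adjusted p = 0.000125), and 3.55 without these 2 nose arrays. Gnal, the olfactory G protein, gave 4.94 ± 0.46, and 5.71 without them. The mean level of the list was 0.22 and -0.23 on the arrays of replicate 1 and 1.14 to 1.69 on the other 4 nose arrays, while all 6 blood arrays lay between -0.82 and -0.68. How much olfactory mucosa each sample held was not measured, and its part in the spread was not tested.

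Enzymes of sustentacular cells and Bowman's glands followed the same arrays. All 9 members tested were higher in nose and at least 4-fold so, with a median difference of 5.62, which was 6.47 without replicate 1 of each day. Cyp2g1, an olfactory cytochrome P450, had levels in nose of 3.84, 5.03 and 4.89 at 7 days and 2.27, 5.43 and 5.48 at 28 days, against -1.46 to -0.82 in blood. It was lowest in nose on replicate 1 of both days. The difference was 5.62 ± 0.46, or 49.3-fold, and 81.0-fold without these arrays. Ugt2a1, an olfactory glucuronosyltransferase, differed by 5.79 ± 0.51, and by 6.6 without them. Cyp2a3, in contrast, varied little in nose, from 5.19 to 5.48, and differed by 6.67 ± 0.07. The chemosensory brush cell list did not separate the tissues: 2 of 10 members were higher in nose and 4 in blood, and Gfi1b, which is also a factor of platelets and red cells, differed by -4.17. The defining factor Pou2f3 lay at -0.62 to -0.22 in nose and -0.54 to -0.24 in blood, and its difference of -0.04 was not called but became 0.63 for the values as deposited.

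**Figure D2:**
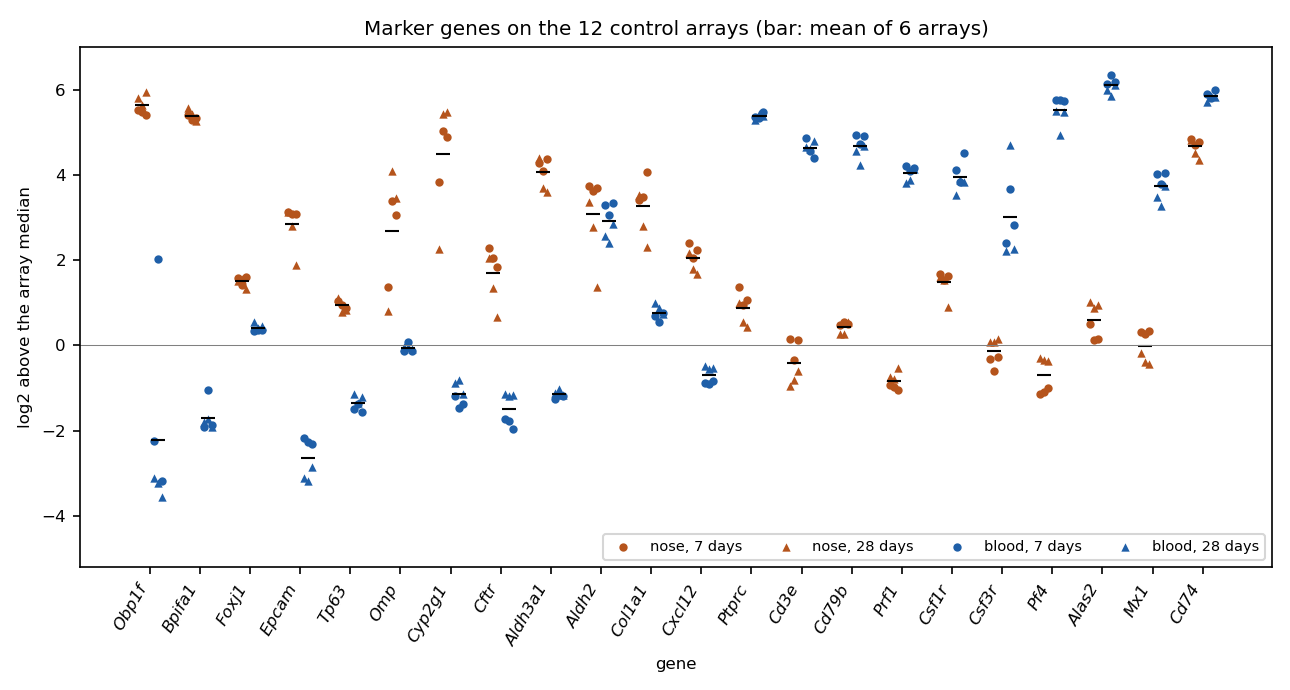
Level of 22 marker genes on each of the 12 control arrays, in log2 above the array median, with nose in orange and blood in blue, circles for 7 days and triangles for 28 days; the bar is the mean of 6 arrays. Omp and Cyp2g1 are low on 2 nose arrays, Obp1f stands at 2.02 on 1 blood array, and the Aldh2 values of both tissues overlap.

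Ion and water transport genes, which set the depth and salt of the airway surface liquid, were higher in nose in 19 of 22 members and higher in blood in 0, with 16 at least 4-fold and a median difference of 3.01. The water channels Aqp4, Aqp5 and Aqp3 differed by 5.07, 4.03 and 4.02, the potassium channel subunit Kcne1 by 4.89, the calcium-activated chloride channel Ano1 by 4.63 and the sodium channel subunits Scnn1a, Scnn1g and Scnn1b by 2.82, 2.26 and 2.14. Cftr, the chloride channel mutated in cystic fibrosis, had levels of 0.66 to 2.28 in nose and -1.96 to -1.15 in blood. These groups were apart, with a difference of 3.19 ± 0.26, the lowest nose value again on 28 day replicate 3. Slc4a4, Atp12a and Slc26a9 did not pass the test, with differences of 0.24, 0.02 and -0.00.

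Enzymes of xenobiotic metabolism were higher in nose in 28 of 32 members, higher in blood in 3, and at least 4-fold higher in nose in 20, with a median difference of 3.26. Cyp2f4, a P450 that bioactivates inhaled aromatics, had levels of 5.16 to 5.72 in nose and -1.43 to -0.76 in blood. Nothing overlapped, and the difference was 6.50 ± 0.13, or 90.6-fold (adjusted p = 1.01e-13). The aldehyde dehydrogenases Aldh1a1 and Aldh3a1 differed by 6.48 and 5.22, the flavin monooxygenases Fmo1 and Fmo2 by 5.45 and 5.35, the alcohol dehydrogenases Adh1c and Adh7 by 4.78 and 4.24 and the quinone reductase Nqo1 by 4.20. The members called higher in blood were Gsto1 (-0.68), Cyp2s1 (-0.43) and Gstp1 (-0.25). Gstp1 passed only narrowly (adjusted p = 0.0448) and turned to 0.42 for the values as deposited.

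Enzymes that handle formaldehyde and glutathione in every cell showed no common direction: 7 of 22 members were higher in nose, 9 in blood, and the median difference was -0.14. Aldh2, the mitochondrial aldehyde dehydrogenase, had levels of 1.38 to 3.73 in nose (median 3.49) and 2.40 to 3.35 in blood (median 2.96). The groups overlapped, and the difference of 0.17 was not called (95% interval -0.39 to 0.73, adjusted p = 0.552). It was 0.45 and called (adjusted p = 0.00271) without nose 28 day replicate 3, which held the lowest value. Esd, which frees formate from formylglutathione, gave 0.04 with an interval of -0.26 to 0.34. Adh5, also on this list, shares its probe set with another gene and was not analysed here. Differences of at least 4-fold were all in favour of blood, in Gpx1 (-2.67), Hagh (-2.41), catalase, Cat (-2.33), and the folate enzyme Mthfd2 (-2.33). Gpx1 and Cat, which remove hydrogen peroxide and are abundant in red cells, had blood levels of 5.55 to 6.25 and 5.57 to 5.99, against 2.75 to 3.64 and 2.72 to 3.78 in nose. The erythroid list stood at a mean level of 3.52 to 4.73 in these blood arrays, and its part in these differences was not tested. Gclc, the catalytic subunit of glutathione synthesis, was higher in nose by 1.97, and its modifier Gclm higher in blood by -0.98.

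Stromal genes marked the nasal samples as tissue. Among fibroblast and matrix genes 27 of 29 were higher in nose and 0 in blood, with 13 at least 4-fold and a median difference of 1.75. The proteoglycans Dcn and Ogn differed most, by 6.14 ± 0.13 and 6.04 ± 0.14. Collagen I, Col1a1, had levels of 2.32 to 4.06 in nose and 0.56 to 1.0 in blood, a difference of 2.49 ± 0.22. Pericyte and smooth muscle genes were higher in nose in 14 of 15, among them Rgs5 (3.74), Tagln (3.48) and Pdgfrb (3.19). Acta2, smooth muscle actin, was well above the array median in both tissues, at 4.32 to 4.88 in nose and 3.15 to 3.48 in blood, and differed by 1.33 ± 0.07. Mylk, the myosin light chain kinase, was the member higher in blood (-1.18).

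Endothelial genes were higher in nose in 14 of 20 members and higher in blood in 3, with a median difference of 0.88. Emcn, Eng and Flt1 differed by 3.89, 2.58 and 2.42, and Cdh5, the junction cadherin of vessels, had levels of 0.67 to 1.37 in nose and -0.38 to -0.23 in blood (1.29 ± 0.09). Pecam1, which leukocytes and platelets also carry, was higher in blood by -2.03 ± 0.09, at 0.86 to 1.25 in nose and 2.89 to 3.18 in blood, and Lyve1 by -2.38 ± 0.17. Kdr gave 0.23 and was not called.

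On the blood side, genes of the leukocyte cytoskeleton and signalling were uniform. All 37 members tested were higher in blood, 35 of them at least 4-fold, with a median difference of -3.88, and all 37 were called so under each of the 4 scalings. Ptprc (CD45), the surface phosphatase of nucleated blood cells, had levels in blood of 5.28 to 5.48 (median 5.36) and in nose of 0.43 to 1.38 (median 0.97). The blood values lay close together, and the difference was -4.48 ± 0.12, or 22.3-fold (adjusted p = 1.22e-12). Coro1a, which binds leukocyte actin, gave -4.18 ± 0.08, the lymphoid factor Ikzf1 -5.25 and the surface antigen Cd52 -5.23. The smallest differences were those of Lcp1 (-1.81) and Cd48 (-1.89). Ptprc was above the array median on all 6 nose arrays, but the median is not a detection limit. Col1a1 was likewise above it on all 6 blood arrays. Whether the nasal samples held leukocyte transcripts was not tested.

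ETS-family factors such as PU.1 act in blood cells, so promoters of leukocyte genes were read for GAGGAAGT on both strands in the same RefSeq windows. It was present in 47 of 579 matched promoters of genes at least 4-fold higher in blood (8.12%) and in 10 of 638 of those at least 4-fold higher in nose (1.57%), against 2.44% of all promoters. The blood cell lists searched were not alike: it was in 4 of 23 leukocyte promoters (17.4%) and 2 of 24 T cell promoters (8.33%), but in only 1 of 24 monocyte promoters (4.17%). That last share equalled the 1 of 24 of the epithelial list and was below the 1 of 20 of the fibroblast list (5.0%), while the cilia list had 0 of 26. The letters of the ETS motif and of the X-box core do not contain each other. The 4 leukocyte promoters are shown, Cd37, a tetraspanin of lymphocytes, over its whole window, chr1:104860735-104861034 on the minus strand, and the others around the match: chr2:197087920-197087957 on the minus strand for Cd53, chr9:2248888-2248925 on the plus strand for Vav1 and chr9:95735515-95735552 on the plus strand for Inpp5d. Capitals mark the motif or its reverse complement ACTTCCTC.
Cd37: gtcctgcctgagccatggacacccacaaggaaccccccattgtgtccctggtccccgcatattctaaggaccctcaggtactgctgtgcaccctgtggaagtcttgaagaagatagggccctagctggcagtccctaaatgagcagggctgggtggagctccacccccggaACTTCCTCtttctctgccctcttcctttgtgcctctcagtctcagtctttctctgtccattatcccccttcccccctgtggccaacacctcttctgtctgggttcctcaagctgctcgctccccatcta
Cd53: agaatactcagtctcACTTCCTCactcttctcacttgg
Vav1: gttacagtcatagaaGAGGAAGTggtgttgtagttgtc
Inpp5d: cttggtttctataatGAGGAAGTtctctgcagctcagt
The matches began between -79 in Cd37 and -3 in Inpp5d. The 4 genes had differences of -4.48 for Cd37, -3.99 for the tetraspanin Cd53, -3.10 for the exchange factor Vav1 and -3.07 for the lipid phosphatase Inpp5d.

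Lymphocyte genes were the most strongly separated of the nucleated cells. In the T cell list all 28 members were higher in blood, 27 at least 4-fold, with a median difference of -4.27. Cd3e, a chain of the T cell receptor complex, had blood levels of 4.40 to 4.87 and nose levels of -0.95 to 0.14. The values were far apart, with a difference of -5.05 ± 0.16 (33.1-fold, adjusted p = 6.78e-12). Both coreceptors were higher in blood, Cd8a by -5.08 and Cd4, which rat monocytes and macrophages carry as well, by -2.94. Cd40lg, the helper signal of activated T cells and platelets, had one of the widest gaps of all genes, at -6.51 ± 0.13. Foxp3, the factor of regulatory T cells, gave -1.77, the smallest on the list.

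In the B cell list 16 of 18 were higher in blood and none in nose, with a median difference of -2.74. Cd79b, a chain of the B cell receptor, was at 4.23 to 4.93 in blood and 0.27 to 0.56 in nose (-4.23 ± 0.09), and Ms4a1 (CD20) gave -4.87. Blnk and Ebf1 did not pass the test, at -0.04 and -0.06. Among NK and cytotoxic genes all 27 tested were higher in blood, 24 at least 4-fold, with a median of -3.38. Perforin, Prf1, had levels of 3.82 to 4.22 in blood and -1.04 to -0.52 in nose, a difference of -4.88 ± 0.11. Granzyme A, Gzma (-5.59), the granule protein Nkg7 (-5.46) and the activating receptor Klrk1 (-5.24) were of similar size. Cd226, an adhesion receptor of NK cells, T cells and platelets, was the largest on this list at -6.99 ± 0.12.

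Monocyte genes were higher in blood in 28 of 31 members, 21 at least 4-fold, with a median difference of -2.27. Csf1r, the growth factor receptor of the lineage, had levels of 3.54 to 4.52 in blood and 0.91 to 1.67 in nose, and differed by -2.47 ± 0.14. Cybb, the core of the phagocyte oxidase, differed by -3.02 ± 0.17 and the chemokine receptor Ccr2 by -3.66. Ms4a4c, with a difference of -7.06 ± 0.09, belongs to the same gene family as Ms4a1 and was not on the list, nor was Pla2g2a, a secreted phospholipase, at -6.13. The 3 members higher in nose were the lipopolysaccharide coreceptor Cd14 (1.14 ± 0.32), Ms4a7 (0.57 ± 0.09) and Tlr4 (0.44 ± 0.13). For Cd14 the values overlapped, at 0.90 to 2.77 in nose and 0.40 to 1.58 in blood.

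Neutrophil genes differed less and unevenly. Of 24 tested 20 were higher in blood and 1 in nose, with 9 at least 4-fold and a median difference of -1.39. Csf3r, the G-CSF receptor, had blood levels of 2.41, 3.67 and 2.82 at 7 days and 2.22, 4.69 and 2.27 at 28 days, against -0.60 to 0.16 in nose. Replicate 2 was the highest blood array on each day. The difference was -3.16 ± 0.37, and -2.57 without these 2 arrays. S100a8, a calgranulin, was too dim on average to be tested, at -3.38 to -2.36 in nose, 0.23 and 1.48 on the 2 arrays of blood replicate 2 and -1.68 to -0.96 on the other 4. The list had 9 members past 4-fold, 6 without blood 28 day replicate 2 and 5 without both arrays, and its median was then -0.89. Granule genes of immature cells were small in difference, with Mpo at -0.40 and Elane at -0.82, and Lcn2, which epithelium also makes, was higher in nose by 1.24 ± 0.13. Neutrophil carry-over into these white cell preparations was not tested.

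Platelet and red cell genes were among the largest differences although the samples are labelled as white cells. In the platelet list 17 of 18 were higher in blood and none in nose, 14 at least 4-fold, with a median of -4.68, the lowest of the 38 lists. Pf4, a platelet chemokine, had levels of 4.94 to 5.75 in blood and -1.14 to -0.29 in nose, a difference of -6.23 ± 0.19 (74.9-fold, adjusted p = 4.39e-12). The thrombin receptor F2rl2 gave -6.75, the von Willebrand factor receptor chain Gp1ba -6.40, the clotting factor subunit F13a1, which macrophages make too, -6.36 and Rgs18 -5.98. Itga2b was not analysed here. All 19 erythroid members were higher in blood, 18 at least 4-fold, with a median of -3.92. Ahsp, the chaperone of alpha globin, had the largest difference of any gene in favour of blood (-7.32 ± 0.16, 160-fold, adjusted p = 2.02e-13). Its levels were 4.69 to 5.54 in blood and -3.06 to -1.58 in nose. Its nose mean of -2.13 lay below the 25th percentile of that tissue's probe sets, a level of -1.24. The nose means of Ms4a4c (-4.14), Cd40lg (-3.57) and Cd226 (-1.83) also lay below it. The size of these differences is therefore uncertain. The nose means of F2rl2, Slc4a1, Gp1ba, F13a1, Pf4, Rsad2, Pla2g2a and Rgs18 lay above this level. Slc4a1, the red cell anion exchanger, differed by -6.42 ± 0.10 and the haem enzyme Alas2 by -5.51 ± 0.15. Hbb differed by -2.34, at 6.51 to 6.69 in blood and 3.90 to 4.57 in nose. Its blood levels were above those of Alas2 (5.85 to 6.35). Whether the arrays still read such high levels in proportion was not tested, so the size of this difference is uncertain too. How much blood remained in the nasal tissue was not measured.

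**Figure D3:**
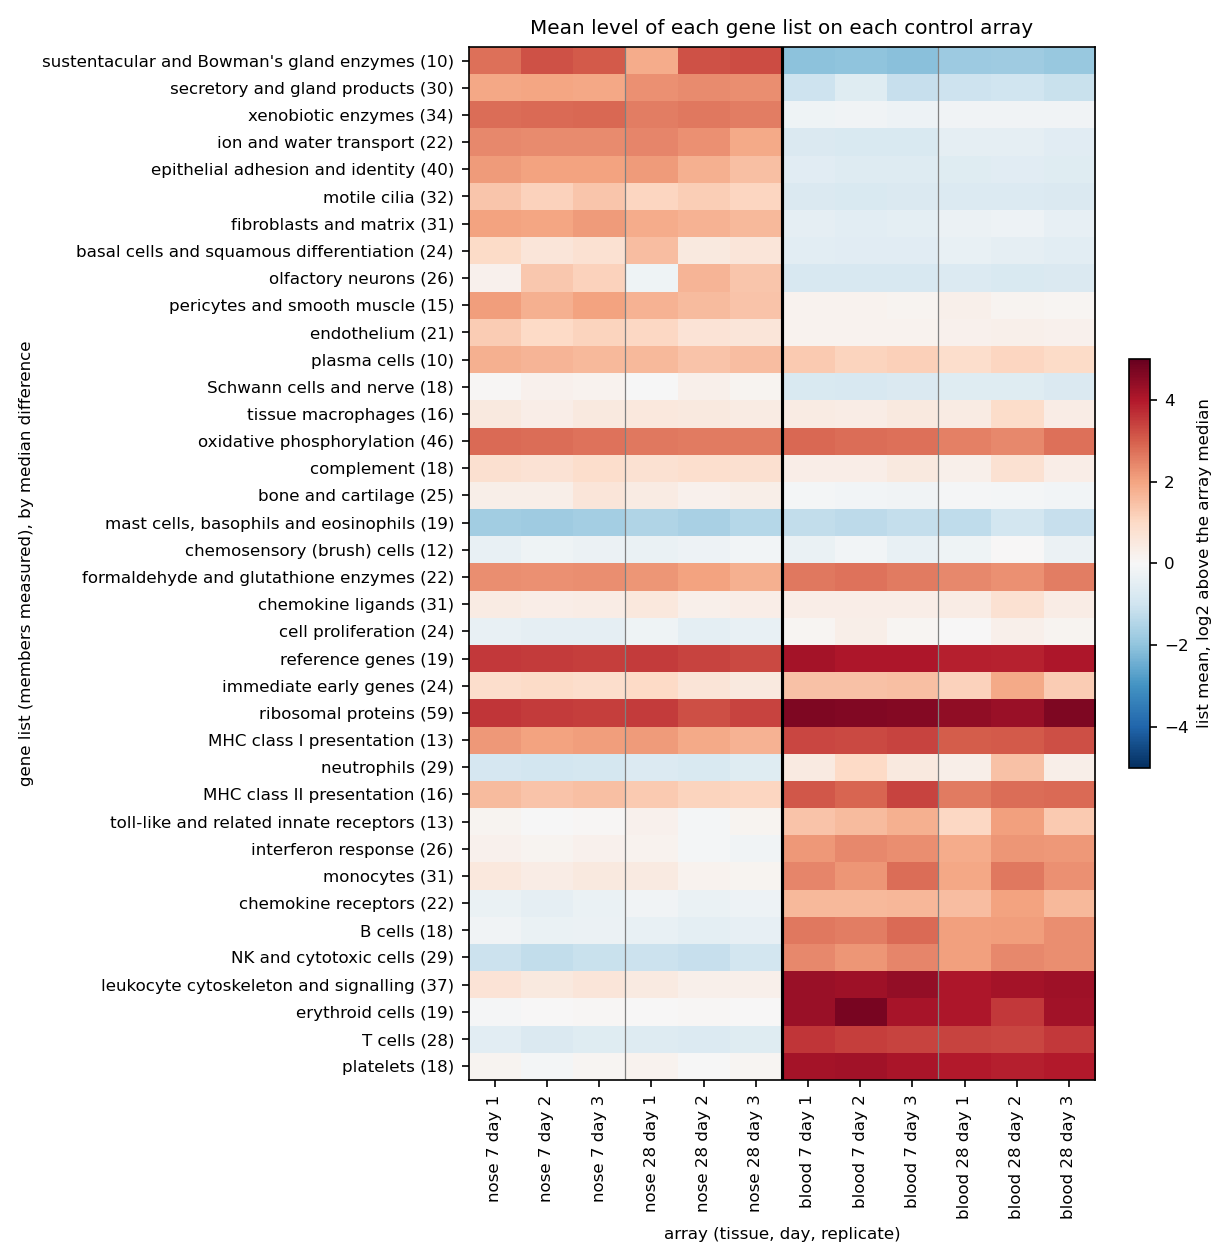
Mean level of all measured members of each of the 38 gene lists (rows, number measured in brackets, ordered by median difference) on each of the 12 control arrays (columns), in log2 above the array median. Epithelial, secretory and enzyme lists are above the median in nose, blood cell lists in blood, and the olfactory row is low on replicate 1 of nose at 7 days (0.22) and 28 days (-0.23).

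Antigen presentation and interferon genes were mostly higher in blood. On the nose arrays the list means were 1.07 to 1.6 for MHC class II and 1.74 to 2.16 for MHC class I. The interferon list lay near the array median there, at -0.17 to 0.23. For MHC class II presentation 15 of 16 were higher in blood and none in nose, but only 3 at least 4-fold, with a median of -1.56. Cd74, the invariant chain, had levels of 4.36 to 4.85 in nose and 5.72 to 5.98 in blood, a difference of -1.18 ± 0.08 that was -0.51 for the values as deposited. RT1-Da, a class II chain, gave -1.56 and the class II transactivator Ciita -2.49. For MHC class I, 10 of 13 were higher in blood, with a median of -1.20; B2m, the light chain, was at 5.11 to 5.38 in nose and 6.24 to 6.46 in blood (-1.12 ± 0.06), and the immunoproteasome subunits Psmb8 and Psmb9 gave -2.38 and -2.15. RT1 genes are close paralogs, so their probe sets can read more than one of them. All 25 interferon response genes tested were higher in blood, 12 at least 4-fold, with a median of -1.98. Rsad2 (viperin) stood out at -6.15 ± 0.13, with levels of 5.25 to 5.96 in blood and -0.89 to -0.13 in nose. Mx1, an antiviral GTPase, gave -3.74 ± 0.09 and the factor Irf7 -3.65 ± 0.20.

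Chemokine ligands split evenly, and their receptors did not. Of 28 ligands 13 were higher in nose and 13 in blood, with 5 at least 4-fold each way and a median of -0.23, which was 0.04 without blood 28 day replicate 2. Nasal ligands were led by Cxcl13, which draws B cells, at 1.73 to 3.31 in nose and -2.16 to -1.76 in blood (4.69 ± 0.20). After it came Cxcl12, which holds cells through Cxcr4 (2.76 ± 0.13), Cxcl17 (2.74), the mucosal ligand Ccl28 (2.66) and the lymphatic ligand Ccl21 (2.63). Among the ligands higher in blood Ccl5, which draws T cells and monocytes, had levels of 4.89 to 5.30 in blood and 0.22 to 1.25 in nose (-4.45 ± 0.12), followed by Ccl3 (-4.20), Ccl4 (-3.57), Ccl2 (-2.54) and Xcl1 (-2.21). The other 8 lay between -1.68 for Ccl6 and -0.20 for Ccl17. The platelet chemokines Pf4 (-6.23) and Ppbp (-5.61) were counted in the platelet list. Neither Cxcl2 (-0.84) nor Ccl24 (-0.37) was called.

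Of 21 receptors tested 18 were higher in blood, 12 at least 4-fold, with a median of -2.31. Ccr7, which reads Ccl19 and Ccl21, was at 4.28 to 4.62 in blood and 0.11 to 0.48 in nose (-4.25 ± 0.09). Cxcr5, the receptor of Cxcl13, differed by -3.39, and Cxcr4, that of Cxcl12, by -3.14 ± 0.10. For these 3 axes the ligand was thus higher in nose and the receptor higher in blood. Since 18 of 21 receptors were higher in blood, most ligands higher in nose would show this pattern, whatever the axis. Of the 28 ligands, 13 were higher in nose and 13 in blood. Ackr3, a scavenger receptor that also binds Cxcl12, was the single receptor higher in nose, with levels of 2.88 to 3.53 there and -0.62 to 0.32 in blood (3.36 ± 0.12, adjusted p = 2.64e-11). Ackr2 and Cxcr1 did not pass the test, at -0.07 and -0.03.

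**Figure D4:**
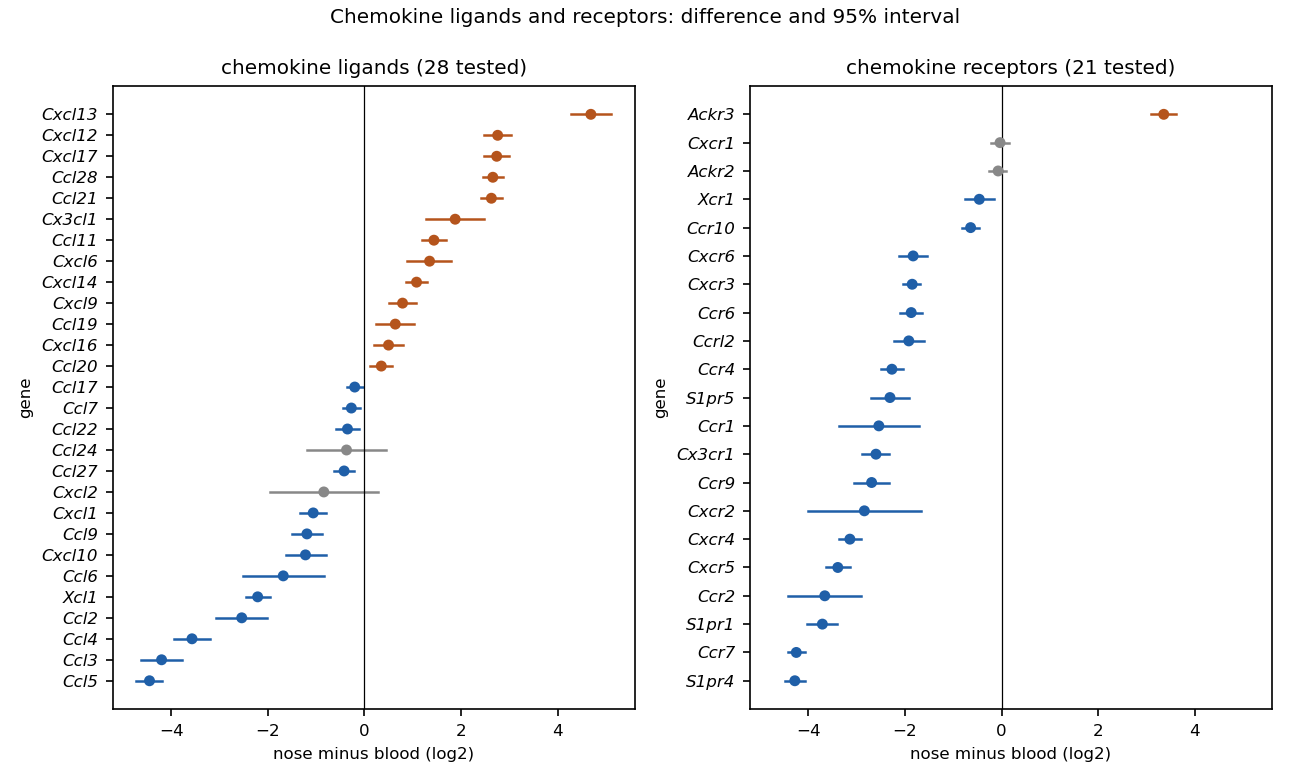
Difference nose minus blood on the log2 scale with its 95% interval for 28 chemokine ligands (left) and 21 chemokine receptors (right), orange where called higher in nose, blue where called higher in blood and grey where not called. Ligands run from 4.69 for Cxcl13 to -4.45 for Ccl5, and Ackr3 at 3.36 is the only receptor to the right of 0.

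Innate receptors and resident macrophage genes were more divided. Among toll-like and related receptors 10 of 13 were higher in blood and 2 in nose, with a median of -1.59. Tlr3, a sensor of double-stranded RNA, was higher in nose (1.70 ± 0.15) and Tlr4 slightly so (0.44 ± 0.13), while Clec4d (-3.99), Tlr7 (-2.83) and Tlr2 (-2.19) were higher in blood. Of 15 tissue macrophage genes 7 were higher in nose and 4 in blood. The scavenger receptor Cd163 had levels of -0.31 to 0.01 in nose and -1.32 to -0.38 in blood (0.88 ± 0.12), the mannose receptor Mrc1 gave 0.89 ± 0.09, complement C1qa 1.56 and Apoe, which many cells make, 3.26. Adgre1 (-2.29) and F13a1 (-6.36) went with blood. Of 15 complement genes 7 were higher in nose, 6 in blood and 2 not called. Those higher in nose were the protease Cfi (4.02), C1s (3.68), the inhibitor Serping1 (3.65), C1r (3.07), C9 (1.77), Masp1 (1.28) and C3 (1.21 ± 0.16). Those higher in blood were the receptors C5ar1 (-2.89) and C3ar1 (-2.48), the membrane regulators Cd55 (-2.49) and Cd59b (-0.81), and the soluble proteins Cfp (-1.48) and Masp2 (-0.40).

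Lists of genes used by all cells held no member at least 4-fold apart, and their medians moved with the scaling. As centred here, the ribosomal and reference medians lay further from 0 than the -0.27 over all genes. Of 59 ribosomal protein genes 58 were higher in blood, 0 at least 4-fold, with a median of -1.11, which was -0.44 for the values as deposited and -0.35 after quantile normalization; 40 were called in blood under all 4 scalings. Rps6 gave -1.38 ± 0.13. Oxidative phosphorylation genes had 16 of 46 higher in nose and 11 in blood, with a median of 0.09. For 17 of these 46 the 95% interval of the difference lay within -0.5 to 0.5, against 21.8% of all genes tested. The same held for only 1 of the 59 ribosomal genes and for 6 of the 19 reference genes. Reference genes had a median of -0.72: Hprt1 differed by -1.20 ± 0.10 and Tbp by -0.82 ± 0.10, while Ppia (-0.17), Gusb (-0.02), Vcp (0.14) and Sdha (0.15) were not called. Under quantile normalization the median of the reference list was 0.04.

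**Figure D5:**
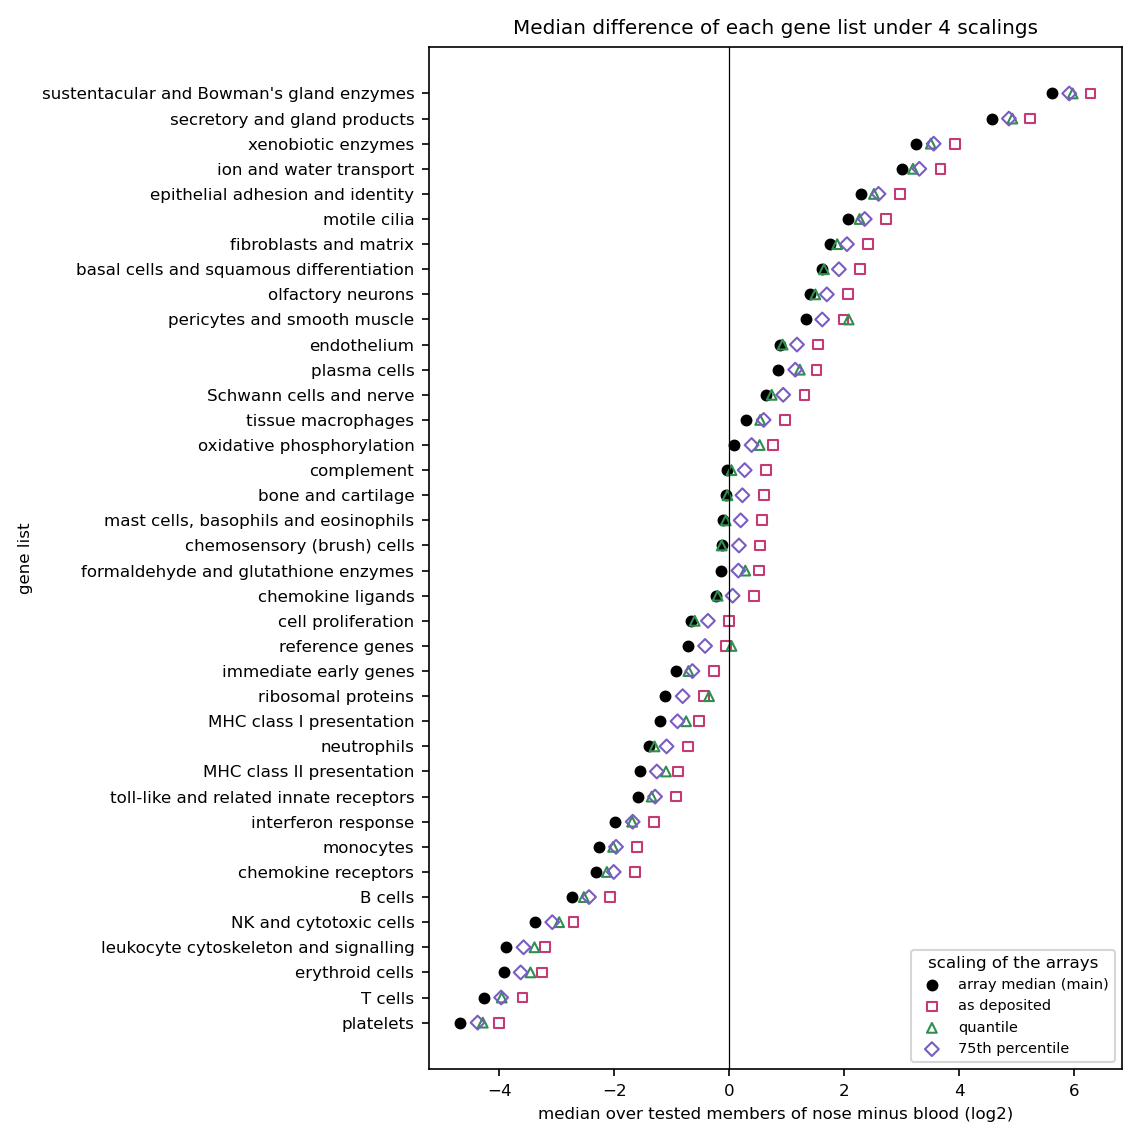
Median over tested members of the difference nose minus blood for each of the 38 gene lists, on the log2 scale, under 4 scalings of the arrays. Lists at either end keep their side under all 4, while those between complement (-0.03 as centred here) and reference genes (-0.72) reach or cross 0 under another scaling.

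The tissue difference was also compared between the 28 day and the 7 day controls, by the interaction term of the same fit. It was called for 851 of 12032 genes (7.07%), 373 with the signed difference moved towards nose at 28 days (3.1%) and 478 towards blood (3.97%). Day is bound to the scale of each set of arrays, and the counts moved with single arrays: over probe sets 992 (4.53%) and 823 (3.76%), or 8.28% together, became 1843 and 2149 without nose 28 day replicate 1, and 478 and 325 without nose 7 day replicate 3. Clca1, a goblet cell product, had nose levels of -2.20 to -1.84 at 7 days and 3.75, 2.61 and 0.97 at 28 days, with blood at -1.89 to -1.28. All 3 nose arrays at 28 days were above all others, and the term was 3.92 (adjusted p = 0.00719). It was 3.26 without nose 28 day replicate 1 and 4.65 without replicate 3, and stayed called in each of 17 alternatives (adjusted p of 0.000178 to 0.0243). Its tissue difference over both days, which is another quantity than this term, was 1.86 in the controls (adjusted p = 0.016). On the exposed arrays that difference was -0.14 and was not called, and the day term was not fitted there. The other terms above 0 were Spetex2g (2.79), Obp2b (1.99), Calcb (1.63) and Spetex2el3 (1.59). Of these, Spetex2g and Spetex2el3 belong to a family of close copies whose probe signals cannot be kept apart with certainty. The terms below 0 were Vof16 (-2.16), Scara3 (-1.81), Arhgap32 (-1.72), Bco2 (-1.64) and Ifit2 (-1.60). Nose 28 day replicate 3 was the lowest nose array for Vof16, Scara3, Arhgap32 and Ifit2, and without it these terms were -1.60, -1.44, -1.40 and -1.44. The term for Obp2b was 1.43 without blood 7 day replicate 2, and that for Ifit2 was -1.22 without blood 28 day replicate 2. Of these 10 terms 4 lost their call without some single array: Vof16 in 9 of 12 such fits, Ifit2 in 8, Obp2b in 6 and Scara3 in 3.

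The same comparison on the 12 exposed arrays, which share no sample with the controls, gave the same direction past the threshold for all 827 nose genes and all 740 blood genes. Of these, 709 (85.7%) and 668 (90.3%) were again at least 4-fold, which is 81.0% and 84.9% of the exposed arrays' own counts of 875 and 787. These genes had been picked for a large difference in the controls, where 81.4% of all genes were called. The share of all genes called is not given here for the exposed arrays. Olfactory neuron genes had a median difference of 2.70 there and Omp one of 4.53, against 1.41 and 2.75 in the controls. The plasma cell list had a median of -0.17 there against 0.85, and Jchain, the joining chain of IgA and IgM, -0.74 against 0.70.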

How the data were processed

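RNA was measured on Affymetrix arrays, and the authors deposited 1 table of linear intensity per probe set, with 29214 probe sets on 24 arrays. The submitters' processing notes name Partek, with its version and the normalization method not given in the sources used. The deposited intensity values were turned to log2 here, and each array was centred on its median. Platform annotation gave 15310 probe sets 1 symbol, 323 several and 13581 none; a gene was read from its probe set with the highest mean over the 12 control arrays. Those whose mean reached the 25th percentile were kept (21910). limma 3.58.1 in R 4.3.3 fitted tissue with day as a block (lmFit, eBayes) and, in a second fit, their interaction, with Benjamini-Hochberg adjustment over all kept probe sets and calls at an adjusted p under 0.05. The fits were tested on simulated data. Python 3.11.15 with pandas 2.3.3 made the summaries. Arrays count no reads, so their number, 6 per tissue, limits the precision.

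The 38 gene lists were chosen with earlier results of these data known. Each list is described by its counts and median, without a test of its own. Named were the 12 largest differences each way, the defining genes of each list, up to 3 members called against a list's side, and the 5 largest interaction terms each way. Other list members given as examples were chosen after their values were seen. Of 1086 list entries 927 were measured and 871 tested; the rest were not analysed here. Same-numbered nose and blood arrays correlated in their deviations with r of -0.185 to 0.033, so the numbers were not taken as pairs. Alternatives covered the filter, scaling, prior, array weights, day, replicate block, threshold, probe set summary, all 24 arrays and each array left out. Leaving out 2 nose or 2 blood arrays together and the fit on the exposed arrays were added after the data were seen.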

Additional observations from a re-analysis of the deposited data

Results flagged for a closer look

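On 6 arrays per tissue, an array was singled out when it lay far from the other 5 by Dixon's criterion, which chance alone meets in about 5% of groups. It was met in 32 of 352 sets of 6 values, of which 11 lay on blood 28 day replicate 2, 10 on nose 28 day replicate 3 and 6 on blood 7 day replicate 2. Blood 7 day replicate 2 lay above the other blood arrays in secretory genes, with a list mean of -0.62 against -1.14 to -1.0. Among genes far higher in nose, Obp1f was at 2.02, Paep at 1.34, Csap1 at 0.19 and Bpifa1 at -1.05. Bpifa2, which was called higher in blood (-0.90), was also high on this array, at 0.20. Blood 28 day replicate 2 lay above the others in the list means of tissue macrophages (0.93), mast cells, basophils and eosinophils (-0.91), chemokine ligands (0.75) and chemokine receptors (2.00). It was also high in the mast cell protease Cpa3 (-0.11 against -2.12 to -1.93), Cd163 (-0.38), Slpi (4.31), Ifit2 (2.85), and the immediate early genes Fos (3.31 against 0.96 to 1.42) and Egr1 (3.78), and low in Pf4 (4.94).

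Nose 28 day replicate 1 was low in sustentacular and gland enzymes, with a list mean of 1.86 against 2.77 to 3.25, and in Gpx6 (2.60). Nose 28 day replicate 3 was low in the ion and water transport list (1.90), Epcam (1.88), Csf1r (0.91), Cd163 (-0.31), Egr1 (1.16) and Atp5f1b (3.4), and high in Ccr7 (0.48), Gsto1 (3.33), Ivl (-0.21) and Bpifb2 (-0.51). Single genes stood apart on other arrays: Adgre1 on nose 7 day replicate 2 (-0.23), RT1-Da on blood 7 day replicate 3 (4.59) and Rfx3 on blood 28 day replicate 3 (1.98).

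The tissue difference itself differed between days, 28 minus 7 days by the interaction term in limma, for 21 of the named genes. Of the 10 largest terms, those of Obp2b, Vof16, Scara3 and Ifit2 lost their call in some alternatives, with adjusted p up to 0.0744, 0.0788, 0.0556 and 0.0895; the other 11 were not recomputed. The signed difference moved towards nose at 28 days for Clca1 (3.92), Spetex2g (2.79), Obp2b (1.99), Calcb (1.63), Spetex2el3 (1.59), Pf4 (1.19), Bpifa2 (1.18), Alas2 (0.92) and Rgs18 (0.70). It moved towards blood for Vof16 (-2.16), Scara3 (-1.81), Arhgap32 (-1.72), Bco2 (-1.64), Ifit2 (-1.60), Cftr (-1.36), Col3a1 (-0.99), Cd3e (-0.84), Cxcl12 (-0.70), Ccl5 (-0.69), Gstm2 (-0.66) and Pou2f3 (-0.51).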

How the results depend on the processing

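Counts moved most with the scaling and with a test against a minimum difference. As deposited, without centring, 11781 probe sets were higher in nose and 4509 in blood (2088 and 631 at least 4-fold), and 6997 and 2445 genes (1414 and 441 at least 4-fold). Centring on the 75th percentile left 8285 probe sets higher in blood. A filter at the median left 3240 probe sets and 2306 genes higher in nose, since fewer were tested, and a test against a difference of 1 left 2026 and 2464 probe sets and 1379 and 1449 genes in nose and blood. Leaving out 1 array gave 4989 to 5339 probe sets in nose and 12066 to 12895 in blood. With the replicate block, although the numbers did not pair the samples, 4991 and 11904 were called. The day interaction was the least stable: 331 probe sets above 0 and 241 below with the replicate block, 1961 and 1732 with all 24 arrays, 425 and 4925 as deposited, 225 and 221 with the filter at the median, 3179 and 1349 without a filter, 576 above 0 after quantile normalization, and 247 and 176 at an adjusted p under 0.01. With 1 array left out it ran from 478 to 1843 above 0 and from 325 to 2149 below. The cause was not tested.

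Of 127 named genes called here, 34 lost the call in at least 1 alternative and 5 without some single array, namely Slpi, Gstp1, Epx, Ifit2 and Jchain. Of 3046 values recomputed for 134 named genes, 37 turned in sign with a call on either side, and a further 20 with none (among them Egr1, -0.24, which was 0.43 as deposited). As deposited these were Pou2f3 0.63, Cfd 0.64, Top2a 0.21, Cox4i1 0.37, Atp5f1b 0.01, Rfx3 0.34, Bpifb2 0.14, Cldn18 0.06, Neurog1 0.18, Cyp2s1 0.24, Gstp1 0.42, Acp5 0.00, Matn1 0.01, Foxd3 0.27, Trem2 0.15, Prdm1 0.02, Tnfrsf17 0.16, Tpsb2 0.41 and Epx 0.48. With the 75th percentile they were Pou2f3 0.26, Cfd 0.27, Gstp1 0.05, Tpsb2 0.04 and Epx 0.11, and after quantile normalization Cox4i1 0.35, Atp5f1b 0.18, Rfx3 0.04, Gstp1 0.53 and Aqp1 0.01. On the exposed arrays they were Cfd 0.24, Jchain -0.74, Tlr4 -0.08, Egr1 0.42, Rfx3 0.31 and Clca1 -0.14. On the 7 day arrays Pou2f3 gave 0.21, and on the 28 day arrays Bco2 gave -0.06. Small differences therefore carry no firm direction, and levels near background limit the size of large ones.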

Other observations

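Lists not described above are given as values. Immediate early genes were higher in blood in 16 of 24 members and in nose in 6, with a median of -0.93: Dusp2 (-2.97), Klf2 (-2.89), Myc (-2.58) and Fos (-1.51) were higher in blood, and Ier3 (2.19) and Ccn1 (1.96) in nose. Proliferation genes were higher in blood in 16 of 21, with a median of -0.67 that was 0.00 as deposited; Mcm6, a replication helicase subunit, gave -1.58, and Aurkb, a mitotic kinase, was the 1 member higher in nose, at 2.68. Mki67 was not analysed here.

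Bone and cartilage genes were higher in nose in 8 of 21 members and in blood in 5, and Schwann cell and nerve genes higher in nose in 7 of 14 and in blood in 3. Plasma cell genes were higher in nose in 6 of 10 and in blood in 3. In the list of mast cells, basophils and eosinophils 8 of 19 measured members were tested, 2 higher in nose and 3 in blood.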
